A study of Mus musculus with 12 samples.

Results

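Itga5, Egfl6, Cav2 and Galnt1 encode proteins by which cells hold on to, build or sense their surroundings. They were taken by name from a table of gene expression in 4 mouse cell types, and they are 4 of the 99 genes that the table holds. All 4 passed the filter on low values (an FPKM, a fragment count scaled by transcript length and library size, reaching 1 in 3 or more of the 12 libraries), and 70 of the 99 genes did so. Itga5 is the integrin alpha chain that pairs with the beta1 chain to form the main fibronectin receptor. Egfl6 is a secreted matrix protein with EGF-like repeats that binds integrins and is known from basement membranes, in mouse skin from that of the hair follicle. Cav2 is a caveolin, a membrane protein that joins caveolin 1 in caveolae, the small pits of the plasma membrane that are plentiful in fibroblasts. Galnt1 is a Golgi enzyme that adds the first sugar of mucin type O-glycans to proteins.

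The study followed cells from skin fibroblasts through reprogramming to induced mesenchymal stem cells and set them beside mesenchymal stem cells of the bone marrow. Fibroblasts (Fibs, labelled WT) were grown from the ear skin of C57BL/6 female mice of 8 weeks. Induced pluripotent stem cells (iPSCs, labelled Reprogramming) were made from Fibs with Sendai virus carrying the Yamanaka factors. They were plated on an inactivated feeder layer and kept with leukemia inhibitory factor. Induced mesenchymal stem cells (iMSCs, labelled Reprogramming) were derived from the iPSCs through embryoid bodies, with 10 ng/ml TGF-beta1 and 5 ng/ml bFGF. Bone marrow mesenchymal stem cells (BMSCs, labelled WT) were the reference cell type. Each cell type was sequenced from 3 independent cultures, and the sources used here do not say whether the cultures came from different animals or reprogrammed clones.

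Library totals, computed from count, FPKM and transcript length, lay between 66114058 and 77355820 counts. Low counts of the table run in steps of 4, and the totals divided by 4 were 16528515 to 19338955. Of 54 marker genes of 6 kinds of cell, 5 were in the table. Cdh1, the epithelial cadherin of pluripotent cells, had an FPKM of 138 ± 5.83 (SD, n = 3) in iPSCs and at most 0.672 in any other library. The neural marker Ngfr was also highest in iPSCs, at 10.8 to 11.1, and at most 0.223 in any other library. Cdh4, of the same list, was at 0.642 to 0.885 in iPSCs and at most 0.0368 elsewhere. Acvrl1, of the endothelial list, had means of 20.3 in Fibs, 1.77 in iPSCs, 10.1 in iMSCs and 6.47 in BMSCs. What these marker levels say about the make-up of the cultures was not tested. None of the 19 mesenchymal markers listed was among the genes analysed here, so the labels of Fibs, iMSCs and BMSCs could not be checked against them. The leukocyte integrin chain Itgb2 ranged from 0.363 to 1.19 over the 12 libraries.

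The library of iMSC replicate 2 stood apart from the other iMSC libraries, and the genes described here took part in that. Over the 70 genes, its median absolute difference in log2(FPKM + 1) from the mean of replicates 1 and 3 was 0.43. The same measure was 0.06 to 0.09 in the libraries of the other 3 cell types, and 0.22 and 0.21 for iMSC replicates 1 and 3, whose comparison mean holds replicate 2. Egfl6 had the lowest difference of all 70 genes in replicate 2, at -2.63, and Itga5 the highest, at 1.12. Cav2 and Galnt1 were lower in it by smaller amounts, at -0.53 and -0.59. Cdh1 had an FPKM of 0.312 in this library, against 0.572 and 0.672 in replicates 1 and 3. Itgb2 stood at 0.753 against 1.19 and 1.19, and the endothelial receptor gene Acvrl1 at 7.53 against 10.9 and 11.8. Ngfr was at 0.0166 in replicate 1 and at 0 in replicates 2 and 3, and Cdh4 was at 0 in all 3 iMSC libraries. The part of these markers in the differences was not tested. The edgeR results of iMSCs are therefore given with and without replicate 2. The library was singled out after its values were seen, those of Egfl6 and Itga5 included. Leaving out an extreme library narrows the spread between cultures, so p-values without replicate 2 are descriptive only. Against BMSCs, the share of the 70 genes that passed went from 17.1% to 58.6% without it.

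**Figure D1:**
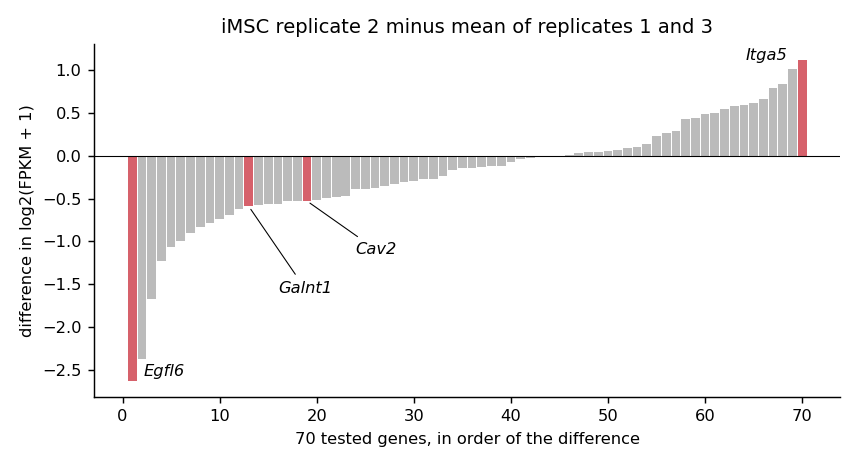
The bars show the difference in log2(FPKM + 1) between iMSC replicate 2 and the mean of iMSC replicates 1 and 3 for each of the 70 tested genes, in order along the horizontal axis, with the 4 genes described here in red. Egfl6 lies at the low end (-2.63) and Itga5 at the high end (1.12), while Cav2 (-0.53) and Galnt1 (-0.59) lie among the moderately lower genes.

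Itga5 (ENSMUSG00000000555, chr15:103344286-103366763, minus strand) was expressed in every cell type and was most abundant in iMSCs. Its FPKM was 37.0, 35.7 and 40.0 in Fibs, 56.0, 60.5 and 56.1 in iPSCs, 79.4, 177 and 83.2 in iMSCs and 61.5, 61.4 and 63.1 in BMSCs. The groups did not overlap in any pair of cell types, and the single library of iMSC replicate 2 stood at more than 2 times the level of the other iMSCs. Group means were 37.6 ± 2.21 in Fibs, 57.5 ± 2.58 in iPSCs, 62.0 ± 0.939 in BMSCs and 113 ± 55.5 in iMSCs (SD, n = 3 each). Among the 99 genes, its mean FPKM ranked 9 in Fibs, 5 in iPSCs, 4 in BMSCs and 2 in iMSCs. In bulk RNA of this kind, a larger share of expressing cells and more RNA per cell cannot be told apart.

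Itga5 rose from Fibs to iPSCs by a log2 fold change of 0.62 ± 0.06 (SE; edgeR quasi-likelihood test, Benjamini-Hochberg adjusted p = 4.2e-05). It was higher in BMSCs than in Fibs by 0.72 ± 0.05 (adjusted p = 3.57e-06 with edgeR). In iMSCs it was higher than in Fibs by 1.59 ± 0.35 (adjusted p = 0.0108 with edgeR) and higher than in iPSCs by 0.98 ± 0.34 (adjusted p = 0.0376 with edgeR). Without iMSC replicate 2, these differences were smaller in size, at 1.11 against Fibs and 0.50 against iPSCs, and both passed the edgeR test (adjusted p = 2.03e-05 and 7.39e-05). The iMSC against iPSC call was lost when any 1 of the 3 iPSC libraries was left out (edgeR adjusted p = 0.0977 to 0.114), and the iMSC against Fib call when Fib replicate 2 was (1.56, adjusted p = 0.0501). Against BMSCs the value of 0.87 ± 0.34 did not pass (edgeR adjusted p = 0.153), although the lowest iMSC library, at 79.4, was above the highest BMSC library, at 63.1. Without iMSC replicate 2 it was 0.39 and passed (edgeR adjusted p = 6.79e-05).

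In the order of levels of Itga5, iPSCs and BMSCs were neighbours whose difference of 0.11 ± 0.04 did not pass the edgeR test (adjusted p = 0.0501). The size of this difference depended on the scaling between libraries. The value was 0.30 with median-ratio scaling (edgeR adjusted p = 0.000227) and 0.50 with TMM scaling (edgeR adjusted p = 1.35e-05). It also passed without iPSC replicate 2, at 0.15 (edgeR adjusted p = 0.00654). The pair further passed without the filter on low values, with DESeq2 and with limma on log2(FPKM + 1) and log2(FPKM + 0.1). In all, 7 of 15 alternatives passed. Median-ratio and TMM scaling moved the median log2 fold change of the 70 genes between BMSCs and iPSCs by 0.19 and 0.39, that between iMSCs and iPSCs by 0.33 and 0.32, and that between iPSCs and Fibs by -0.43 and -0.46. Both scalings were computed from the 70 genes alone. All 99 genes of the table hold only 0.365% to 0.485% of the library totals. These scalings therefore reflect the make-up of the 70 genes and are not library-wide. The Itga5 difference between iPSCs and Fibs was 0.18 and 0.15 on those scales and passed on both (edgeR adjusted p = 0.0139 and 0.0236). The order of means was thus Fib, iPSC, BMSC and iMSC, with Fibs below every other cell type.

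**Figure D2:**
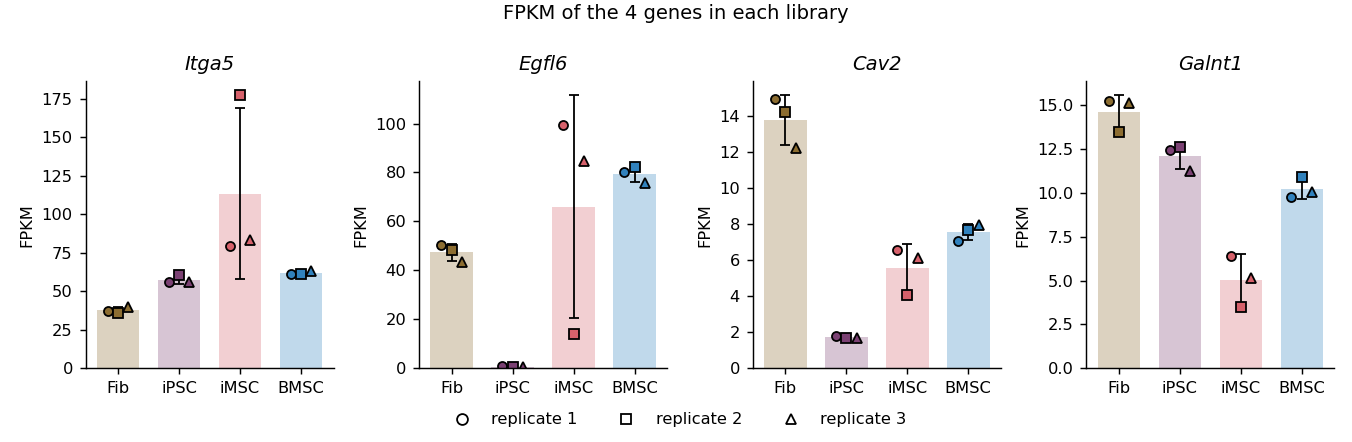
Each panel plots FPKM on a linear axis from 0 for 1 gene, with a point for each library (shapes mark replicates), a bar at the mean of 3 libraries and an error bar of 1 SD. iMSC replicate 2 (square) is at 177 for Itga5 and 14.0 for Egfl6, away from the other iMSCs, while Cav2 is lowest in iPSCs and Galnt1 lowest in iMSCs.

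Egfl6 (ENSMUSG00000000402, chrX:166523007-166585720, minus strand) had a single annotated transcript and was abundant in the 3 cell types other than iPSCs. Its FPKM was 50.3, 48.2 and 43.5 in Fibs, 0.924, 0.369 and 0.523 in iPSCs, 99.5, 14.0 and 84.7 in iMSCs, and 80.0, 82.1 and 75.6 in BMSCs. Every iPSC library was below every other library, and iMSC replicate 2 was the only other library below 43.5. Group means were 47.4 ± 3.47 in Fibs, 0.605 ± 0.287 in iPSCs, 66.1 ± 45.7 in iMSCs and 79.3 ± 3.31 in BMSCs (SD, n = 3 each). Egfl6 ranked 5 of the 99 genes by mean FPKM in Fibs, 4 in iMSCs, 3 in BMSCs and 68 in iPSCs.

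The iPSC level of Egfl6 rested on few reads, with 179, 75 and 110 deposited counts in the 3 libraries. With counts divided by 4, the step in which low counts of the table run, exact 95% Poisson intervals, which cover counting error only, were 0.673 to 1.24, 0.221 to 0.578 and 0.346 to 0.758 FPKM. The intervals of replicates 1 and 2 did not overlap. Reads of Egfl6 were present in all 3 iPSC libraries, and each upper bound was far below the lowest level in the other cell types, 14.0. Whether feeder cells carried into the iPSC libraries gave some of these reads was not tested.

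Egfl6 fell from Fibs to iPSCs by 6.28 on the log2 scale (SE 0.32; edgeR adjusted p = 1.17e-06) and rose from iPSCs to iMSCs by 6.76 ± 0.90 (edgeR adjusted p = 0.000822). BMSCs were higher than iPSCs by 7.03 ± 0.27 (edgeR adjusted p = 1.64e-07) and higher than Fibs by 0.74 ± 0.06 (edgeR adjusted p = 1.21e-05). Without iMSC replicate 2 the iMSC against iPSC value was 7.25 (edgeR adjusted p = 1.49e-06). In mean FPKM of all 3 libraries the iMSC level was 109 times and the BMSC level 131 times the iPSC level. The BMSC against Fib call was lost when all 12 libraries entered 1 fit (adjusted p = 0.243 with edgeR).

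The place of iMSCs among the other 2 Egfl6-rich cell types turned on iMSC replicate 2. With all libraries, Egfl6 in iMSCs differed from Fibs by 0.48 ± 0.64 (edgeR adjusted p = 0.573) and from BMSCs by -0.26 ± 0.63 (edgeR adjusted p = 0.818), and neither passed. Without replicate 2, iMSCs were above Fibs by 0.96 (edgeR adjusted p = 0.000103) and above BMSCs by 0.22 (edgeR adjusted p = 0.025). Leaving it out also cut the SE against BMSCs from 0.63 to 0.07, so these p-values are descriptive. The iMSC libraries overlapped the Fib and BMSC libraries only with replicate 2 included, since replicates 1 and 3, at 99.5 and 84.7, were above all of the 6 Fib and BMSC libraries. In the order of means, iPSC, Fib, iMSC and BMSC, the iMSCs therefore differed from neither neighbour beyond the spread.

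**Figure D3:**
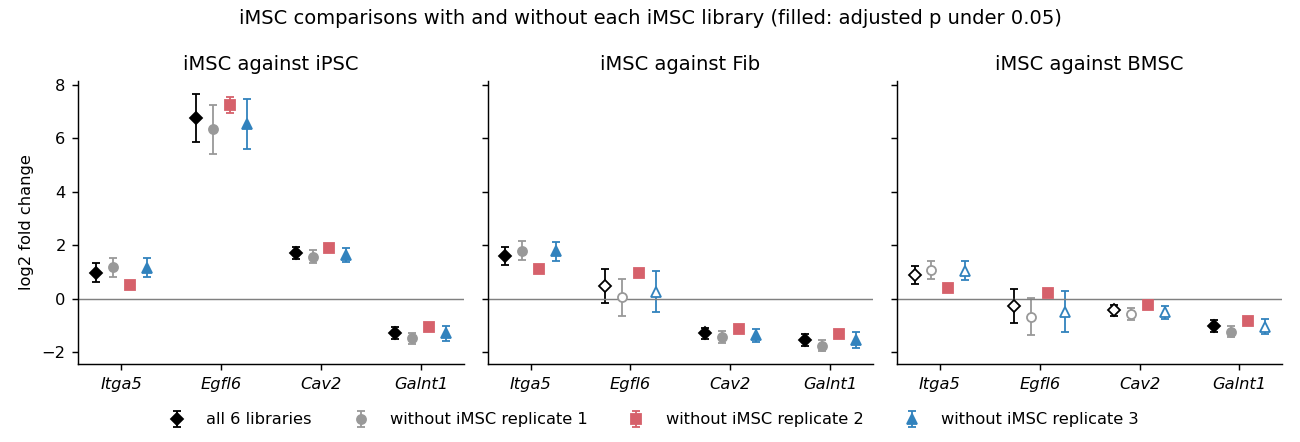
The points give the log2 fold change of each gene, with its standard error, in the 3 iMSC comparisons with all 6 libraries (black) and with each iMSC library left out. Filled points passed an adjusted p of 0.05. Without iMSC replicate 2 (red), Egfl6 is above 0 against BMSCs (0.22) and Itga5 is nearer 0 against iPSCs (0.50).

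Cav2 (ENSMUSG00000000058, chr6:17281185-17289115, plus strand) was highest in Fibs and lowest in iPSCs, and it was intermediate in iMSCs and BMSCs. Its FPKM was 14.9, 14.2 and 12.2 in Fibs, 1.81, 1.67 and 1.67 in iPSCs, 6.55, 4.09 and 6.14 in iMSCs and 7.07, 7.68 and 7.95 in BMSCs. The libraries of the 4 cell types did not overlap. A part of feeder cells in the iPSC values was not tested. Means were 13.8 ± 1.41, 1.72 ± 0.0828, 5.59 ± 1.32 and 7.57 ± 0.454 in the same order of cell types (SD, n = 3 each). A gene annotated on the other strand, Gm15581, overlaps Cav2, and no source used here states whether strand was used in counting, so its reads cannot be told apart from those of Cav2.

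Cav2 fell from Fibs to iPSCs by 3.00 on the log2 scale (SE 0.12; edgeR adjusted p = 3.87e-07) and rose from iPSCs to iMSCs by 1.70 ± 0.23 (edgeR adjusted p = 0.000858). It was higher in BMSCs than in iPSCs by 2.14 ± 0.11 (edgeR adjusted p = 5.51e-07). Both mesenchymal stem cell types stayed below Fibs, iMSCs with a log2 fold change of -1.30 ± 0.21 (edgeR adjusted p = 0.00341) and BMSCs with one of -0.87 ± 0.09 (edgeR adjusted p = 4.91e-05). With iMSC replicate 2 left out, Cav2 in iMSCs was at 1.88 against iPSCs (edgeR adjusted p = 1.07e-05) and at -1.12 against Fibs (edgeR adjusted p = 0.000109). These 5 calls held under all of the 15 alternatives run for each. In the order iPSC, iMSC, BMSC and Fib, only iMSCs and BMSCs were neighbours whose difference, -0.44 ± 0.20, did not pass (edgeR adjusted p = 0.191). It passed without iMSC replicate 2, at -0.25 (edgeR adjusted p = 0.0489).

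The 250 bases before the RefSeq start of Itga5, Egfl6 and Cav2 (RefSeq, GRCm38.p6) are printed so that the start regions of a gene kept in iPSCs (Itga5) and of genes low there (Egfl6 and Cav2) can be read side by side, 5′ to 3′ along each gene, with matches to 6 searched motifs in capitals. The motifs, each read on both strands, were the TATA box letters TATAAA, the GC box core GGGCGG, the CCAAT box, the AP-1 letters TGANTCA, the SMAD letters CAGAC and the E-box CACGTG. The windows lie at chr15:103366792-103367041 (minus), chrX:166585717-166585966 (minus) and chr6:17280935-17281184 (plus).
Itga5: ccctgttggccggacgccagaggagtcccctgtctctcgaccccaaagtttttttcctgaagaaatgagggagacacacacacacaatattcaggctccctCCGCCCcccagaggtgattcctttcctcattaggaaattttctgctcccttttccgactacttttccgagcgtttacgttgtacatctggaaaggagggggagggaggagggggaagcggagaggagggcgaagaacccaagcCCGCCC
Egfl6: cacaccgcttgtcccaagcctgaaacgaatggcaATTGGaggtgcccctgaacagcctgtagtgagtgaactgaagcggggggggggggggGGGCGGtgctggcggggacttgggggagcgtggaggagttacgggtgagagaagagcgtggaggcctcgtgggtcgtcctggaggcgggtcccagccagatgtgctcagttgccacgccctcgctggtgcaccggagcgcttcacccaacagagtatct
Cav2: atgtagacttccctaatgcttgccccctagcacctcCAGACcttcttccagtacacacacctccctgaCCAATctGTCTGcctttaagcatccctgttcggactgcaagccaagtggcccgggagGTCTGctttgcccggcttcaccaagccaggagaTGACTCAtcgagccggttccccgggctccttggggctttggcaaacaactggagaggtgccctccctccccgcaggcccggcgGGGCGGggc

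All 3 windows held GGGCGG, which 32.7% of 32851 RefSeq windows of this length held. Itga5 had it on the reverse strand at 149 and 6 bases before the start, Egfl6 on the forward strand at 159 and Cav2 on the forward strand at 9. CCAAT, found in 33.8% of windows, was in Egfl6 at 216 (reverse) and Cav2 at 182 (forward). The Cav2 window alone held TGANTCA, at 92, which 6.75% of windows held. It also held CAGAC, at 214 (forward), 175 and 125 (reverse), which 42.2% held. TATAAA (12.4% of windows) and CACGTG (6.02%) matched in none of the 3 windows. The windows held 11, 15 and 10 CG pairs for Itga5, Egfl6 and Cav2, against a median of 6, and 55.6, 64.8 and 62% G or C against a median of 52.4%. These matches describe letters only.

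Galnt1 (ENSMUSG00000000420, chr18:24205344-24286818, plus strand) was the only one of the 4 genes whose lowest mean was in iMSCs, and its highest was in Fibs. Its FPKM was 15.2, 13.4 and 15.1 in Fibs, 12.5, 12.6 and 11.3 in iPSCs, 6.42, 3.49 and 5.16 in iMSCs and 9.76, 10.9 and 10.1 in BMSCs. The 4 groups did not overlap, and replicate 2 was the lowest iMSC library. Means were 14.6 ± 0.999, 12.1 ± 0.734, 5.02 ± 1.47 and 10.2 ± 0.573 in the same order (SD, n = 3 each). A processed pseudogene, Gm7701, lies inside Galnt1 on the same strand.

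Galnt1 fell from iPSCs to iMSCs by 1.27 on the log2 scale (SE 0.23; edgeR adjusted p = 0.0026) and was lower in iMSCs than in Fibs (-1.54 ± 0.23, edgeR adjusted p = 0.00286). Without iMSC replicate 2 these values were -1.06 and -1.33 (edgeR adjusted p = 0.000126 and 6.37e-05). It was also lower in iMSCs than in BMSCs (-1.03 ± 0.22, edgeR adjusted p = 0.0249). That call was lost without iMSC replicate 3 (adjusted p = 0.0909 with edgeR) and without BMSC replicate 1, 2 or 3 (adjusted p = 0.109, 0.104 and 0.0867), and it held without iMSC replicate 2 (-0.82, adjusted p = 0.000309). BMSCs were below Fibs (-0.51 ± 0.07, edgeR adjusted p = 0.000176), and iPSCs were below Fibs (-0.27 ± 0.07, edgeR adjusted p = 0.00867), a call lost with all 12 libraries in 1 fit (adjusted p = 0.166). The iPSC against Fib value was larger in size on other scales, at -0.70 with median-ratio scaling (edgeR adjusted p = 6.32e-05) and -0.73 with TMM scaling (edgeR adjusted p = 2.32e-05). In the order iMSC, BMSC, iPSC and Fib all neighbours passed. BMSCs and iPSCs differed by -0.24 ± 0.07 (edgeR adjusted p = 0.0117), but the value was -0.05 with median-ratio scaling (adjusted p = 0.473) and turned to 0.15 with TMM scaling (adjusted p = 0.0579).

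**Figure D4:**
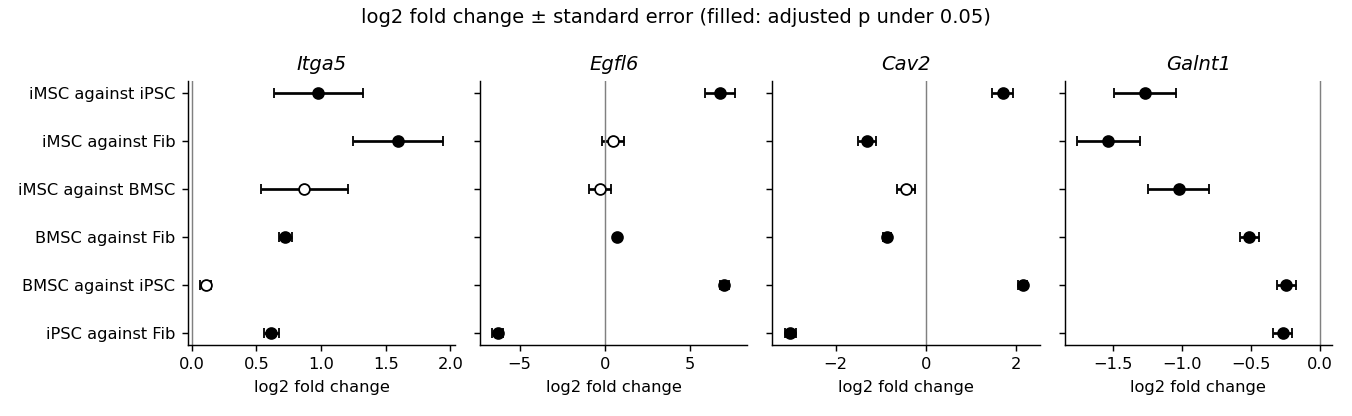
Points give the edgeR log2 fold change of each gene in each of the 6 comparisons, named as first against second cell type, with bars of 1 standard error and filled points for an adjusted p under 0.05. The horizontal axes differ between panels. Values run from -6.28 (iPSCs against Fibs) to 7.03 (BMSCs against iPSCs) for Egfl6 and from -1.54 to near 0 for Galnt1.

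Set side by side, the 4 genes passed the test in most comparisons, as did many genes of the table. From iPSCs to iMSCs, 3 rose and 1 fell, where 75.7% of the 70 genes passed, 19 of them higher and 34 lower in iMSCs. An absolute log2 fold change over 1 was reached by 3 of the 4, as by 54.3% of the 70. Between iMSCs and Fibs, 3 of 4 passed and all 3 exceeded that fold, against 55.7% and 38.6% of the 70. Between iMSCs and BMSCs only Galnt1 passed, and it exceeded that fold by a small margin (-1.03, and -0.99 with median-ratio scaling), against 17.1% and 5.71% of the 70. Between BMSCs and Fibs all 4 passed and 0 exceeded the fold, against 75.7% and 25.7%, and between BMSCs and iPSCs 3 passed and 2 exceeded it, against 78.6% and 48.6%. Between iPSCs and Fibs all 4 passed and 2 exceeded it, against 87.1% and 54.3%. The libraries of the groups did not overlap for 4, 3, 3, 4, 4 and 4 of the 4 genes in these 6 comparisons, in this order, against 80%, 72.9%, 42.9%, 78.6%, 82.9% and 91.4% of the 70. The comparisons share libraries, so their counts are not independent.

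Without iMSC replicate 2 these counts changed against Fibs and BMSCs but not against iPSCs. From iPSCs to iMSCs all 4 genes still passed and 3 exceeded the fold, against 81.4% and 51.4% of the 70. Between iMSCs and Fibs all 4 then passed, Egfl6 included, and 3 exceeded the fold, against 67.1% and 34.3%. Between iMSCs and BMSCs all 4 passed in place of 1, and 0 in place of 1 exceeded the fold, with Galnt1 at -0.82, against 58.6% and 7.14%. When any 1 BMSC library or iMSC replicate 3 was left out instead, the call of Galnt1 was lost and none of the other 3 genes passed (edgeR). The libraries of the groups did not overlap for any of the 4 genes in the 3 iMSC comparisons without iMSC replicate 2, against 90%, 80% and 74.3% of the 70.

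The 4 genes went in different directions, so their median log2 fold change took either sign. It was 1.34 in iMSCs against iPSCs, -0.41 in iMSCs against Fibs and -0.35 in iMSCs against BMSCs, where the medians of the 70 were -0.29, 0.09 and 0.04. With iMSC replicate 2 left out, these values were 1.19, -0.08 and -0.02 for the 4 genes, and -0.38, 0.07 and 0.17 for the 70. In BMSCs against Fibs, BMSCs against iPSCs and iPSCs against Fibs the medians of the 4 were 0.11, 1.12 and -1.64, and those of the 70 were -0.06, -0.26 and 0.57.

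Within a library, the balance between the genes changed with the cell type. Egfl6 was above Itga5 in FPKM in all Fib and BMSC libraries and in iMSC replicates 1 and 3, and the ratio of Itga5 to Egfl6 was 12.6 in iMSC replicate 2 and 60.6 to 164 in iPSCs. The ratio of Galnt1 to Cav2 was 6.73 to 7.56 in iPSCs, 0.945 to 1.24 in Fibs, 1.26 to 1.42 in BMSCs and 0.840 to 0.979 in iMSCs. Galnt1 was thus above Cav2 in all iPSC and BMSC libraries and below it in all iMSC libraries.

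Patterns over the 12 libraries were compared by correlations of log2(FPKM + 1) as a description, since the points share 4 cell types and therefore fall into groups. The correlations include iMSC replicate 2 and were not repeated without it. Itga5 and Galnt1 ran opposite to each other (Pearson r = -0.93, Spearman rho = -0.95), and Egfl6 and Cav2 alike by Pearson more than by rank (0.85 and 0.45). Other pairs were weaker, from -0.40 to 0.19 by Pearson. The genes most like Itga5 by Pearson were Ccm2 (r = 0.96), Pemt (0.90) and Brat1 (0.86), with Spearman rho of 0.75, 0.92 and 0.90. Those most like Egfl6 were Gm2a (0.96), Tom1l2 (0.94) and Scpep1 (0.92), but less so by rank (Spearman rho = 0.59, 0.54 and 0.52). Cav2 was closest to Sox9, a transcription factor of cartilage and other lineages (0.99), Scpep1 (0.96) and Fgf23 (0.93), and Galnt1 to Mcts1 (0.97), Gnai3 (0.95) and Fer (0.88).

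Of 117 genes in 5 lists of integrins, integrin ligands and adhesion proteins, EGF-repeat and matrix proteins, caveolae and O-glycosylation, only Itgb2 and Itgb2l were in the table beside the 4 genes. Both are integrin beta chains and both stayed under the filter. Itgb2l was at 0 in BMSCs and at most 0.0358 elsewhere. Itgb2, which pairs with alpha chains other than that of Itga5, had means of 0.783, 0.767, 1.05 and 0.610 in Fibs, iPSCs, iMSCs and BMSCs.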

How the data were processed

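RNA of 12 mouse cultures was sequenced as paired-end libraries, 3 per cell type. The submitters' processing notes name cutadapt 1.9, HISAT2 2.0.4, StringTie 1.3.4d and mm9, and the study's methods name StringTie and Ballgown for FPKM. The authors deposited FPKM, which corrects for transcript length and library total, beside counts that were not normalized. How the authors made the counts is not given in these sources, and 61 of 77 counts from 1 to 13 were 4, 8 or 12. The table's coordinates of the 4 genes equal GENCODE M21 on GRCm38, and are printed as the table gives them.

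Of 99 genes, 70 passed the filter (FPKM of 1 or more in 3 or more of the libraries). Library totals came from the count, FPKM and length of 7 to 9 genes per library. The main test was edgeR 4.0.16 (quasi-likelihood, R 4.3.3) on counts of the 2 cell types compared, with p adjusted over the 70 genes, and a call needed adjusted p under 0.05 and, for the stricter count, an absolute log2 fold change over 1. Standard errors were derived from the F statistic. Counts entered the edgeR and DESeq2 fits as deposited, not divided by the step of 4. DESeq2 1.42.0, limma 3.58.1 on log2(FPKM + 1) and other scalings, filters and library sets were alternatives. P-values measure the spread between cultures. The genes named were the 4 chosen by name, the list and marker genes that the table holds, and the 3 genes most like each. The genes and lists were chosen with earlier results of these data known. Test scripts were run on counts simulated from BMSC and Fib means. The simulated counts had no steps of 4 and no outlying library, so that run does not cover these features. Promoter windows are RefSeq GRCm38.p6, and no sequence of Galnt1 is printed.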

Additional observations from a re-analysis of the deposited data

How the results depend on the processing

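For the 4 genes in the 6 comparisons, 332 of 360 alternatives kept direction and side of the threshold, 14 lost a call, 12 gained one and 2 turned direction. The turned results were Egfl6 in iMSCs against BMSCs without iMSC replicate 2 (0.22, from -0.26) and Galnt1 in BMSCs against iPSCs with TMM scaling (0.15, from -0.24). Over left-out libraries, Egfl6 in iMSCs against BMSCs ran from -0.68 to 0.22. Itga5 in iMSCs against BMSCs, not called in the main test, passed with DESeq2 (adjusted p = 0.0451) and with all 12 libraries in 1 edgeR fit (0.0318). The number of genes called fell with an absolute log2 fold change over 2, from 38 to 21 in iMSCs against iPSCs, 27 to 10 in iMSCs against Fibs, 4 to 2 in iMSCs against BMSCs, 18 to 9 in BMSCs against Fibs, 34 to 22 in BMSCs against iPSCs and 38 to 25 in iPSCs against Fibs. By adjusted p alone it was 12 in iMSCs against BMSCs, 53 in BMSCs against Fibs, 55 in BMSCs against iPSCs and 61 in iPSCs against Fibs. In iMSCs against BMSCs it was 8 with all 12 libraries in 1 fit and 1 to 5 with 1 library left out. In BMSCs against Fibs, limma on log2(FPKM + 1) called 11. Replicate numbers were not used as pairs in the main test. Deviations of same-numbered libraries correlated at -0.39 to 0.44 over all pairs, with 0.40, 0.26 and -0.04 in iMSCs against iPSCs. With 3 libraries per cell type, these values cannot decide whether the cultures were paired, and the sources used here do not say. In iMSCs against iPSCs 4 of 6 libraries correlated best with their own number, and in the other comparisons 0 to 3 did. A fit with the replicate block lowered the count in iMSCs against BMSCs from 4 to 1, and Itga5 in iMSCs against iPSCs (0.87, adjusted p = 0.0613) and Galnt1 in iMSCs against BMSCs (-1.07, adjusted p = 0.116) lost their calls. Depth limits most the iPSC level of Egfl6, at 75 to 179 counts.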
